A study of Mus musculus with 20 samples.

Results

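Syt16, gene identifier ENSMUSG00000044912.10, was followed through 20 RNA libraries of the mouse hippocampus. It is 1 of 13256 genes listed in every table and 1 of 13174 that reached the minimum level for a fit. It was chosen for being lower in both groups of Fmr1 mutants, so its differences between mutants and controls are given below as a description, with no test. The libraries form 4 groups of 5, female and male C57 mice with an intact Fmr1 gene and female and male mice whose titles read KO. The genotype field names the same mutants a knockdown of Fmr1, and C57 animals are entered there as WT. How the mutation was made, the strain the mutants were bred on and the age of the animals were not given in the sources used here. Mice of both genotypes lived under the same stated light cycle with free access to food, and no group received a treatment. The labels do not say whether the 5 libraries of a group came from separate mice, and the p-values below cover the spread among libraries alone, which may be technical.

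Synaptotagmins are proteins with a pair of C2 domains, modules that in many members bind phospholipids when calcium enters the cell. Syt1, the best studied, is the main calcium sensor for fast transmitter release at forebrain synapses, and other members act in slower release, in dense-core vesicle exocytosis or in membrane traffic without calcium. Syt16 belongs to an atypical branch of the family with Syt14, its closest relative, and its C2 domains are regarded as unable to bind calcium. Fmr1 encodes FMRP, an RNA-binding protein that regulates translation in neurons, and its loss causes fragile X syndrome in people.

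On the mm10 build, the deposited tables place Syt16 on the forward strand of chromosome 12, from 73997661 to 74273267, a span of 275.6 kb. GENCODE M21 gives it 1 protein-coding transcript, Syt16-203, of 8156 nt in 7 exons, whose last exon holds 6630 nt or 81.3% of the length. It also lists Syt16-201, of 3476 nt in 8 exons and marked for nonsense-mediated decay, and processed transcripts of 330 and 436 nt. The tables hold 1 value per gene, so these transcripts were not measured apart. The antisense gene Gm29587 lies within the locus and shares 183 of the 9144 exonic bases of Syt16 (2.0%), and without a stated strand setting its reads cannot be told apart from those of Syt16. The bases just ahead of the gene start annotated by RefSeq are shown to place the locus, at chr12:73997527-73997623 of GRCm38.p6 (forward strand, sequence and start from RefSeq). RefSeq puts that start at 73997624, ahead of the start in the deposited tables. They are printed 5′ to 3′ with each CpG, the dinucleotide that DNA methylation targets, in capitals.
Syt16 upstream: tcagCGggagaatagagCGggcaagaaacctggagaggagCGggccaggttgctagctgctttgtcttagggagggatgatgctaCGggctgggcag
These 97 bases had a GC content of 59.8% and held 4 CpG. For comparison, 32851 RefSeq windows were each cut to their first 97 bases, whose place relative to each gene's own start was not checked. Their median was 50.5% GC and 2 CpG, with 76.6% of windows below Syt16 in GC and 69.5% below it in CpG. No measurement in the series reads the activity of this stretch.

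Fmr1 checks the genotype labels. Its level was 10.6 ± 0.558 FPKM (a unit that divides the fragments of a gene by its length and by the library's mapped total, SD, n = 5) in female C57 mice and 3.32 ± 0.327 in female KO mice, or 31.2% of the control level. In males it was 11.4 ± 0.527 and 3.56 ± 0.187 FPKM, or 31.3%. C57 libraries ran from 9.85 to 11.8 FPKM and KO libraries from 2.90 to 3.72, and an exact two-sided permutation test over 252 splits gave p = 0.0079 in each sex, the smallest this design allows. The sexes also matched their labels, since 4 Y-linked genes were at most 0.0286 FPKM in every female library and at least 1.46 in every male one. Depth per library is unknown, because the tables hold FPKM and total FPKM (230631 to 244976) is set by the unit. Pan-neuronal markers summed to between 861 and 917 FPKM in each library and markers of dentate granule cells to between 99.8 and 150.3, and no marker of any list was at 0 in all libraries of a group. Ttr, a choroid plexus gene, ran from 8.37 to 1461 FPKM and passed 500 FPKM in 4 libraries, while the pituitary gene Prl passed 4 FPKM in 3 female KO libraries.

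Syt16 was lower in KO than in C57 hippocampus in both sexes, at 66.1% of the control level in females and 69.0% in males. In female C57 mice its level in replicates 1 to 5 was 7.96, 8.27, 7.77, 7.64 and 8.64 FPKM, a mean of 8.05 ± 0.404 (SD, n = 5). In female KO mice it was 5.35, 5.12, 5.04, 5.91 and 5.21 FPKM, a mean of 5.33 ± 0.344 or 66.1% of the control. The 5 female KO values sat close together and all lay under the lowest female C57 value. In bulk tissue, fewer cells that express Syt16 and less Syt16 RNA per cell cannot be told apart.

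In male C57 mice Syt16 stood at 8.10, 8.98, 8.74, 8.92 and 9.10 FPKM, a mean of 8.77 ± 0.395. Male KO libraries gave 6.01, 5.71, 5.78, 5.29 and 7.46 FPKM, a mean of 6.05 ± 0.829 or 69.0% of the control. Male KO replicate 5 was the highest of the 10 KO libraries, and even so it lay under the lowest C57 value of either sex, 7.64 FPKM. Its distance from the next male KO library did not reach the limit used for an outlying value. The same library had the highest Fmr1 level of the male KO group (3.72 FPKM) and the highest pan-neuronal sum of that group (917 FPKM). The order of the group means was male C57, female C57, male KO and female KO, where the ranges of the C57 groups overlapped, those of the KO groups overlapped, and those of C57 and KO did not.

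**Figure D1:**
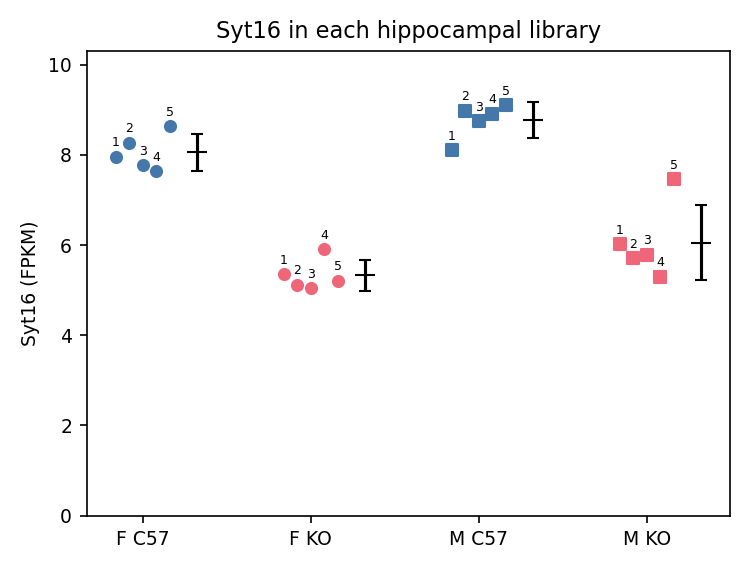
Syt16 level in FPKM (vertical axis) in the 20 libraries, by group (F female, M male). Points are libraries with their replicate number and the bars beside them show mean ± SD (n = 5). KO libraries lie between 5.04 and 7.46 FPKM and C57 libraries between 7.64 and 9.10.

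On the scale of log2(FPKM + 1), which the fit uses and which understates changes at low levels, Syt16 in KO minus C57 was -0.52 in females (SE 0.063) and -0.48 in males (SE 0.063). The male difference minus the female one was 0.04 (SE 0.089), smaller than its own error. Without male KO replicate 5 the male difference was -0.54 and the male minus female value turned to -0.026, still within that error. Over all genes tested, 3.32% passed in females (438 genes) and 0.0455% in males (6 genes) at a Benjamini-Hochberg adjusted p under 0.05 in limma. Syt16 was selected on these very contrasts, so no test of it is given and nothing is read from its place among all genes.

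The comparison of the sexes over both genotypes did not enter the choice of Syt16 and could be tested. Syt16 was higher in males by a log2 of 0.13 (SE 0.044, 95% interval 0.037 to 0.22) averaged over both genotypes, which did not pass (limma, unadjusted p = 0.00842, adjusted p = 0.0842), where 5.58% of genes did. The adjusted p ran from 0.0522 to 0.230 over the alternative settings. Within C57 the difference was 0.11 (adjusted p = 0.565 in limma) and within KO 0.15 (adjusted p = 0.150), with overlapping ranges of the sexes in both genotypes. Each of these differences within a genotype uses group means that also form the KO differences. They are therefore not independent of the choice of Syt16.

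FPKM is set against the other RNA of a library, so the level of Syt16 was also taken relative to neuronal genes in the same library. Per 1000 FPKM of 8 pan-neuronal genes, which encode products such as the SNARE protein Snap25 and the nuclear protein Rbfox3, Syt16 stood at 9.12 ± 0.355 FPKM in female C57 and 5.85 ± 0.361 in female KO mice, or 64.2%. The corresponding values in males were 9.91 ± 0.408 and 6.84 ± 0.798, or 69.0%. Set against the summed level of the 14 other synaptotagmins with values, the KO ratio was 62.8% of C57 in females and 68.5% in males. On both scales every KO library lay under every C57 library, with the highest KO ratios in male KO replicate 5 (8.14 per 1000 of the pan-neuronal genes and 14.1 per 1000 of the synaptotagmins). These ratios hold the Syt16 values for which the gene was chosen, and the pan-neuronal sums varied only from 861 to 917 FPKM. The separation of KO from C57 in the ratios thus largely restates the levels above and is a description.

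**Figure D2:**
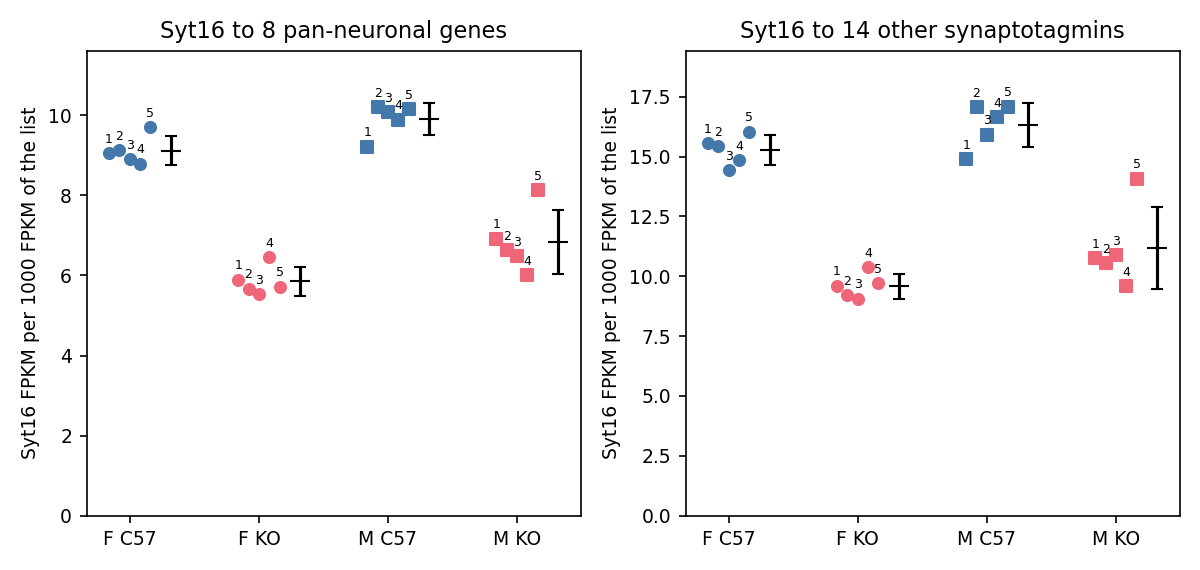
Syt16 FPKM per 1000 FPKM of 8 pan-neuronal genes (left) and of 14 other synaptotagmins (right) in each library, with mean ± SD beside the points (n = 5, F female, M male). In the left panel KO libraries lie between 5.53 and 8.14 and C57 libraries between 8.80 and 10.2, and in the right panel between 9.05 and 14.1 and between 14.4 and 17.1.

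Marker genes of several cell types moved between the groups as well. All 10 markers of dentate granule cells were below 0 in the female difference and 3 of them fell (limma, adjusted p under 0.05): Dock10 by a log2 of 0.40, Tdo2 by 0.31 and Trpc6 by 0.27 (named after their values were seen). Over all genes tested 3.32% passed in females and 0.0455% in males. The summed level of these granule cell markers was 128.0 to 150.3 FPKM in female C57 and 99.8 to 129 in female KO libraries. In males none of the 10 passed in limma (0 had an unadjusted p under 0.05), and the sums were 126 to 138 and 125 to 133 FPKM. All 10 oligodendrocyte markers were below 0 in both sexes, of which 1 passed in females, Opalin, and 0 in males (1 had an unadjusted p under 0.05). Their sums were 605 to 1027 FPKM in female C57, 661 to 818 in female KO, 795 to 987 in male C57 and 719 to 877 in male KO libraries. The part of granule cells and oligodendrocytes in the level of Syt16 was not tested.

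Among the other lists, the summed level of 10 interneuron markers was 545 to 633 FPKM in female C57 and 638 to 683 in female KO libraries. In females 7 of the 10 were above 0 and 3 below, and the sum weighs the most abundant markers most. Sst, the somatostatin gene, had the largest female difference of the list and was the only one to pass (log2 0.25, adjusted p = 0.0407 in limma). The interneuron sums of the male groups overlapped. In females all 7 tested choroid plexus markers, all 6 ependymal and all 5 blood markers were above 0, as were 7 of 8 pericyte and 6 of 7 meningeal markers, and of these Col1a1 alone passed (log2 0.54). Male microglial sums were 181 to 199 FPKM in C57 and 170.5 to 180.2 in KO libraries, a list named after its values were seen. Of its 10 markers 0 passed in males in limma (1 had an unadjusted p under 0.05). The female sums overlapped, at 182 to 204 FPKM in C57 and 178 to 193 in KO libraries. The part of these cells in the level of Syt16 was not tested. Without the 4 libraries with Ttr above 500 FPKM (female C57 replicate 4, replicates 4 and 5 of female KO, replicate 2 of male KO), the Syt16 difference was -0.57 in females and -0.46 in males. Without female KO replicates 2, 3 and 4, where Prl exceeded 4 FPKM, the female difference was -0.53. The 5 female KO libraries also had the steepest rise of level with gene GC content, a log2 of 0.0618 to 0.0759 per 10% GC, against -0.0951 to 0.0311 in the other libraries. The longest Syt16 transcript has a GC content of 45.4%, under the median of 49.7% over the tested genes. With the GC trend of each library removed the difference was -0.49 in females and -0.47 in males.

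The genes around Syt16 were taken by position, to see whether any chromosome neighbour differed with it. Fmr1 itself lies on the X chromosome. On the side before Syt16 the 10 nearest listed genes are Pcnx4, Dhrs7, Ppm1a, 4930447C04Rik, Mnat1, Trmt5, Slc38a6, Prkch, Hif1a and Snapc1. On the other side they are Kcnh5, Rhoj, Ppp2r5e, Wdr89, Sgpp1, Syne2, Mthfd1, Akap5, Zbtb25 and Zbtb1. Of these 20 genes 0 passed in females, 0 in males and 0 in the mean of both KO differences (limma), where 1, 3 and 4 had an unadjusted p under 0.05. Over all genes 3.32%, 0.0455% and 3.22% passed. The median difference of the 20 was -0.04 in females and -0.06 in males, with a range of -0.19 to 0.22 in females and -0.26 to 0.13 in males, against medians of 0.0052 and -0.0015 over all genes. None of the 20 reached the size of the Syt16 difference in either sex. Syt16 was chosen for that difference, so nothing is read from its standing apart.

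The nearest gene, Snapc1, encodes a subunit of a complex that starts transcription of small nuclear RNA genes. Its start lies at -0.0332 Mb from that of Syt16. It stood at 6.70 ± 0.410 FPKM in female C57 and 6.70 ± 0.365 in female KO mice (limma, adjusted p = 0.998), and at 6.57 ± 0.704 and 7.27 ± 0.401 in males (log2 0.13, adjusted p = 0.548). Hif1a, the oxygen-regulated subunit of a transcription factor, starts at -0.0963 Mb and was at 16.5 ± 0.812 and 15.3 ± 0.701 FPKM in females (log2 -0.10, adjusted p = 0.177) and 17.4 ± 0.810 and 16.5 ± 0.586 in males (log2 -0.07, adjusted p = 0.669). The ranges of C57 and KO libraries overlapped for both genes in both sexes. On the other side the starts are farther away. Kcnh5, a voltage-gated potassium channel gene at 0.90 Mb, reached at most 1.12 FPKM in any library, with a female difference of -0.13 (adjusted p = 0.520) and a male one of -0.04 (adjusted p = 0.952). Rhoj, a small GTPase gene at 1.31 Mb, at most 0.687 FPKM in any library, with differences of -0.03 (adjusted p = 0.749) and 0.05 (adjusted p = 0.832). At such low levels the log2 scale leaves little room for a difference to show.

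**Figure D3:**
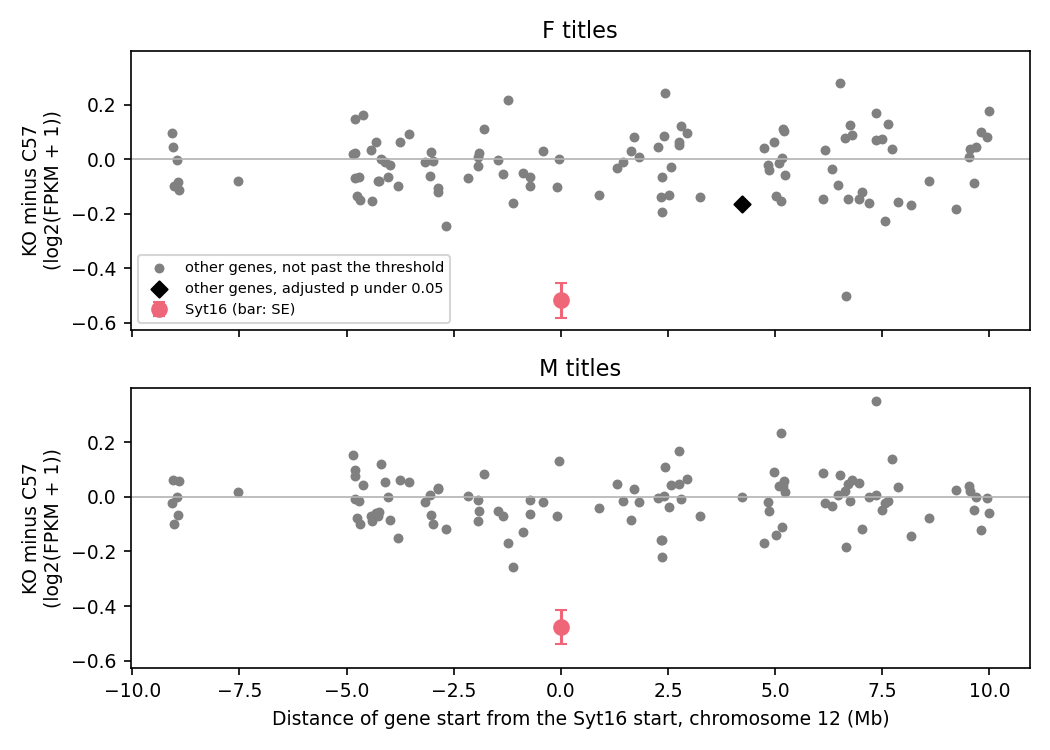
KO minus C57 difference in log2(FPKM + 1) (vertical axis) for genes on chromosome 12 whose start lies within 10 Mb of that of Syt16 (horizontal axis, Mb), in females (top) and males (bottom). Syt16 is drawn with its SE, at -0.52 and -0.48. Of the 110 other genes, 1 passed in females (diamond) and 0 in males, where 3.32% and 0.0455% of all genes passed.

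Within 1 Mb, 7 genes were tested and 0 passed in any of these comparisons (limma, with 1, 2 and 2 at an unadjusted p under 0.05 in females, males and the mean). Within 10 Mb on either side 110 genes were tested, of which 1 passed in females, 0 in males (8 at an unadjusted p under 0.05) and 3 in the mean of both. Over all genes 3.32%, 0.0455% and 3.22% passed, and the counts within 10 Mb do not exceed these shares. In males 1145 of all 13174 genes had an unadjusted p under 0.05. Gphn, which encodes the scaffold protein gephyrin of inhibitory synapses and starts at 4.23 Mb, fell in females from 19.3 ± 0.349 to 17.1 ± 0.713 FPKM (log2 -0.17, adjusted p = 0.00633) and was at 19.3 ± 0.252 and 19.3 ± 0.315 in males. In the mean of both sexes Gphn fell by 0.08 (adjusted p = 0.0295), Sipa1l1, a Rap GTPase-activating protein gene of dendritic spines, by 0.16 (adjusted p = 0.0185) and Pygl, a glycogen phosphorylase gene, by 0.12 (adjusted p = 0.0493). None of these calls held without the 4 libraries high in Ttr or without the 3 high in Prl. All 3 of the latter came from the 5 female KO libraries, so few of that group remained. The part of the smaller number of libraries in the lost calls was not tested. The differences without them were -0.13 and -0.16 for Gphn in females, -0.07 and -0.08 for Gphn in the mean, -0.14 and -0.15 for Sipa1l1 and -0.16 and -0.12 for Pygl. The Pygl call ended without any 1 of 16 single libraries and the mean Gphn call without any 1 of 6. Slc39a9, a zinc transporter gene at 6.65 Mb singled out after its values were seen, had a female difference of -0.50 with an SE of 0.43 (adjusted p = 0.556), and the lowest and highest female C57 libraries were at 1.14 and 5.29 FPKM.

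On chromosome 12 as a whole, without Syt16 but with the 110 genes within 10 Mb counted again, 466 genes were tested. Of these 13 passed in females, 1 in males and 22 in the mean (5 higher and 17 lower in KO). Over all genes 3.32%, 0.0455% and 3.22% passed. The gene that passed in males was Serpina3n, a protease inhibitor gene of reactive astrocytes at 30.4 Mb from Syt16, which in females was at 22.3 ± 2.17 and 16.2 ± 1.06 FPKM. Another 5 entries stood beside each other far before Syt16, from -18.9 to -18.8 Mb, and were lower in the mean of both sexes, with a wide spread among KO libraries. The largest of these differences were those of 1700047I17Rik2 (-0.50, adjusted p = 0.0234) and Fam177a (-0.49, adjusted p = 0.0226). Srp54a and Srp54b, copies of a signal recognition particle gene, differed by -0.39 and -0.32 (adjusted p = 0.0190 and 0.0172) and a further Srp54a entry by -0.44 (adjusted p = 0.0178). The Srp54a entry at -0.39 ran from 15.7 to 17.3 FPKM in male C57 and from 9.71 to 17.2 in male KO libraries. In females it ran from 15.1 to 15.7 FPKM in C57 and from 9.16 to 14.6 in KO libraries. Reads of near-identical copies could have been split between these entries. These genes were picked out after their values were seen.

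Synaptotagmins other than Syt16 had values for 14 of 16 genes listed for the family, Syt8 and Syt15 not being analysed here. Of the 14, 0 passed in females, males or the mean (limma, with 1, 2 and 3 at an unadjusted p under 0.05). Over all 13174 genes 3.32%, 0.0455% and 3.22% passed, and 2573, 1145 and 2373 had an unadjusted p under 0.05. A count of 0 in a list this short is near that share. Their median difference was 0.05 in females, where 10 were above 0 and 4 below, and -0.01 in males, where 6 were above and 8 below. They ran from -0.28 to 0.29 in females and from -0.12 to 0.22 in males. No other synaptotagmin with a value was lower in KO by as much as Syt16 in either sex. Since Syt16 was chosen for being lower in KO, nothing is read from its place in the family.

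**Figure D4:**
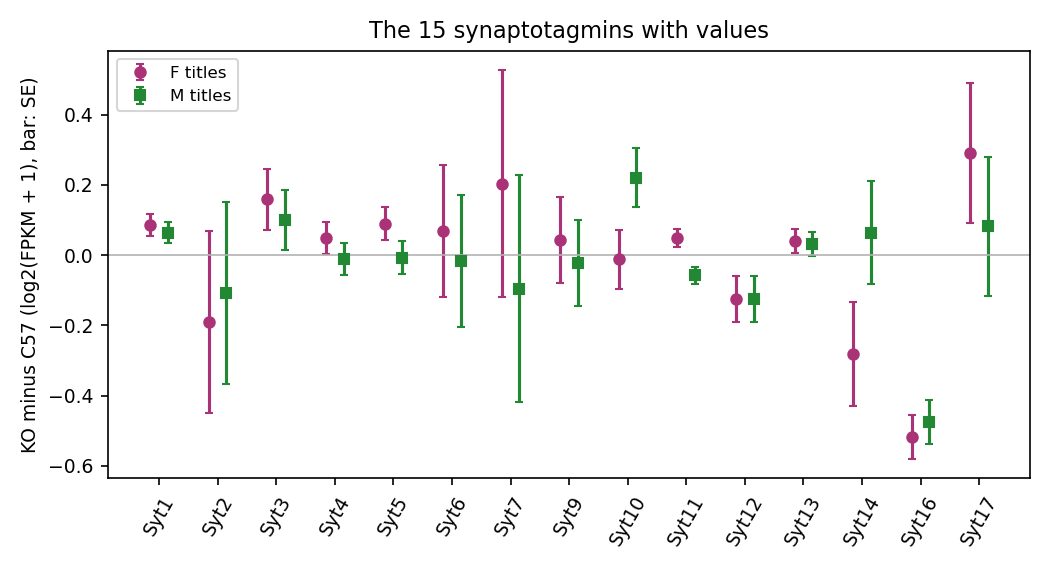
KO minus C57 difference in log2(FPKM + 1) (vertical axis, bars SE) in females (circles) and males (squares) for the 15 synaptotagmins with values. Syt16 lies at -0.52 and -0.48, and the others lie between -0.28 and 0.29.

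Syt14, the closest relative, was a low gene. Its levels were 2.79, 2.31, 2.81, 2.86 and 2.60 FPKM in female C57 and 2.57, 2.50, 2.21, 2.69 and 0.696 in female KO libraries (log2 -0.28, adjusted p = 0.299 in limma). Replicate 5 alone was far below the others, and without it the female difference was -0.07. In males Syt14 stood at 2.72 ± 0.274 and 2.89 ± 0.190 FPKM (log2 0.06, adjusted p = 0.948).

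Among the calcium sensors of vesicle release, Syt1 was the highest synaptotagmin, at 189.7 ± 5.45 FPKM in female C57 and 201 ± 6.25 in female KO mice (log2 0.09, adjusted p = 0.127 in limma). In males it was at 198 ± 7.83 and 207 ± 4.33 FPKM (log2 0.06, adjusted p = 0.574). The other sensors of this kind differed by -0.19 in females and -0.11 in males (Syt2) and by 0.04 and -0.02 (Syt9). Of the slower or high-affinity sensors, Syt3 differed by 0.16 and 0.10 and Syt5 by 0.09 and -0.01. Syt6 differed by 0.07 and -0.02, Syt7 by 0.20 and -0.10 and Syt10 by -0.01 and 0.22. Of members with little or no calcium binding, the group that Syt16 resembles in this respect, Syt4 differed by 0.05 and -0.01, Syt11 by 0.05 and -0.06 and Syt12 by -0.13 and -0.12. Syt13 differed by 0.04 and 0.03 and Syt17 by 0.29 and 0.08. The sign was negative in both sexes for Syt2 and Syt12 alone, and neither passed (adjusted p in females 0.730 and 0.295).

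Levels per transcript length placed Syt16 at rank 9 of 15 synaptotagmins in each of the 4 groups. The next lower gene was Syt12 in every group, at 4.95 ± 0.588 FPKM in female C57, 4.44 ± 0.293 in female KO, 4.60 ± 0.382 in male C57 and 4.13 ± 0.320 in male KO mice. Its ranges did not overlap those of Syt16 in any group, although they came close in female KO libraries (4.02 to 4.85 FPKM, against 5.04 to 5.91). The next higher gene was Syt17 or Syt3. Syt17 ran from 7.88 to 13.5 FPKM in male C57 libraries, which overlapped the range of Syt16 (8.10 to 9.10 FPKM), and in the KO groups it ran from 8.99 to 17.3 in females and from 7.94 to 13.96 in males, above Syt16 in both.

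Of 14 other genes for proteins with tandem C2 domains, 8 had values, and 0 passed in females and 0 in males (limma, with 2 and 1 at an unadjusted p under 0.05). Over all genes 3.32% passed in females, 0.0455% in males and 3.22% in the mean, so a list this short can hold no call by its length alone. Sytl2, which encodes an effector of the vesicle GTPase Rab27, passed in the mean of both sexes, with a difference of -0.16 (adjusted p = 0.0360). It was at 2.18 ± 0.206 and 1.90 ± 0.240 FPKM in females and at 2.66 ± 0.126 and 2.21 ± 0.145 in males. Rph3a, the gene of the Rab3 effector rabphilin, had the smallest p of the list in females (log2 -0.18, adjusted p = 0.0957) and a male difference of 0.02. Esyt1, an extended synaptotagmin gene of contacts between endoplasmic reticulum and plasma membrane, came second in males (log2 0.07, adjusted p = 0.777).

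The SNARE proteins and their regulators drive the membrane fusion on which synaptotagmins act. All 31 genes of this list were tested, and 1 passed in females, 0 in males (2 at an unadjusted p under 0.05) and 1 in the mean. The background over all genes was 3.32%, 0.0455% and 3.22%, so a single call in a list of this length is near it. Vamp2, the synaptic vesicle SNARE, rose in females from 217 ± 9.68 to 239 ± 9.10 FPKM (log2 0.14, adjusted p = 0.0334 in limma). In males it was at 214 ± 7.19 and 222 ± 5.38 FPKM (adjusted p = 0.685), and its mean difference was 0.10 (adjusted p = 0.0323). The smallest p in males were those of Cplx1, a complexin gene (log2 -0.13, adjusted p = 0.287), and Cadps2, a gene for priming of dense-core vesicles (log2 -0.10, adjusted p = 0.559). The list's median difference was -0.02 in females and 0.02 in males. Neither the Vamp2 nor the Sytl2 call held without the libraries high in Ttr or without those high in Prl, and single libraries ended them too (7 for Vamp2 in females, 9 in the mean, 10 for Sytl2). The differences without the Ttr and without the Prl libraries were 0.10 and 0.11 for Vamp2 in females, 0.08 and 0.08 in the mean, and -0.17 and -0.18 for Sytl2. These fits held fewer libraries, and the part of that in the lost calls was not tested.

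Over the 20 libraries, the gene with the level most like that of Syt16 was Fmr1 (Pearson r 0.928, Spearman rho 0.884 of log2(FPKM + 1), among 11806 tested genes with a mean of at least 1 FPKM). Both genes fall into a C57 and a KO cluster, so this value largely restates the difference between genotypes for which Syt16 was chosen. Within the 10 C57 libraries r was 0.749 (rho 0.782), where both genes also had the higher mean in males, and within the 10 KO libraries 0.292 (rho 0.285). After the mean of each group was subtracted it was 0.194, at rank 2740. The next genes over all libraries were Nol4 (r 0.861), Rasgef1a (0.852), Brinp1 (0.837) and the enkephalin precursor gene Penk (0.835). Without female KO replicates 3 and 2, the libraries farthest from the median of Syt16, their r was 0.832, 0.845, 0.788 and 0.811. KO minus C57 of these 4 genes ran from -0.10 to -0.26 in females and from -0.10 to -0.36 in males. They were picked for likeness to Syt16 over all libraries, which favours a lower KO level, so these differences are given with no test.

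**Figure D5:**
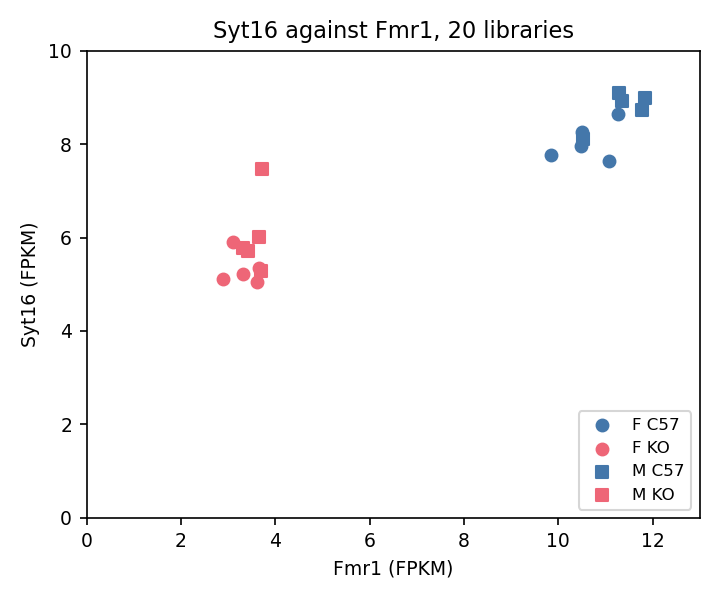
Syt16 (vertical axis) against Fmr1 (horizontal axis), both in FPKM, in each of the 20 libraries (circles female, squares male). The libraries form a KO cluster with Fmr1 between 2.90 and 3.72 FPKM and a C57 cluster between 9.85 and 11.8, with Syt16 at most 7.46 in the first and at least 7.64 in the second.

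With group means subtracted, the most like genes were Mast1, a microtubule-associated kinase gene (r 0.833, rho 0.851), Acad9, a mitochondrial complex I assembly gene (0.772, rho 0.711), and Dpagt1, which starts N-glycan synthesis (0.768, rho 0.761). Glt1d1 (0.762, rho 0.868) and the lysosomal protease gene Ctsf (0.744, rho 0.689) followed. None of these 5 passed in females or males, with differences between -0.11 and 0.12. Without male KO replicates 5 and 4, the libraries in which Syt16 was farthest from its group mean, r was 0.701 for Mast1, 0.643 for Acad9, 0.709 for Dpagt1, 0.922 for Glt1d1 and 0.643 for Ctsf. The points of these correlations share the library preparation and the FPKM scale, and the genes were taken as the highest of 11806, so the values are descriptions.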

How the data were processed

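Hippocampal RNA of 20 mouse libraries was extracted with TRIzol and prepared with a SMARTER mRNA-seq kit, per the labels' protocols. The authors deposited FPKM per gene, with 1 table for each library, per the file headers. Named in the submitters' processing notes are FastQC, HISAT2, StringTie and mm10, without versions. The annotation release, trimming and strand setting were not given in the sources used here. Libraries were grouped by their titles.

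Genes with at least 0.5 FPKM in at least 5 libraries were kept (13174 of 13256). Log2(FPKM + 1) of all 20 libraries entered 1 limma-trend model (limma 3.58.1 in R 4.3.3) of 4 group means. The threshold was an adjusted p (Benjamini-Hochberg, all tested genes) of 0.05. The difference KO minus C57 was taken in females, in males and as their mean, and males minus females over both genotypes. FPKM hold no counts, so no counting interval was computed. The fit was tested on simulated data.

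Syt16, the neighbour and gene lists and the naming rules were chosen with earlier results of these data known. The rules name the 10 listed genes on each side of Syt16, each synaptotagmin with a value, list members past the threshold (otherwise the 2 smallest p), and the 5 genes most like Syt16 on each measure. Lists of marker genes covered 16 cell or tissue types. For 13228 genes GC content came from GENCODE M21. Alternatives were upper-quartile rescaling, a pseudocount of 0.1, no filter, a filter of 2 FPKM, separate fits, robust variance shrinkage, library weights, a replicate block, removal of a loess trend on GC, leaving out libraries high in Ttr or Prl, and leaving out each library.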

Additional observations from a re-analysis of the deposited data

Results flagged for a closer look

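Within 52 groups of 5 libraries checked, 5 held a library whose gap to its nearest neighbour exceeded 0.71 of the group's range, and chance gives about 1 such group in 20. Syt14 was lowest in female KO replicate 5, at 0.696 FPKM. Syt1 was highest in female C57 replicate 5, at 199 FPKM, among female C57 libraries. Syt12 was highest in male C57 replicate 5, at 5.27 FPKM, among male C57 libraries. Vamp2 was lowest in female C57 replicate 4, at 199.9 FPKM, among female C57 libraries, and lowest in female KO replicate 1, at 223 FPKM, among female KO libraries. No group of Syt16 or Fmr1 held such a library.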

How the results depend on the processing

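Under 31 alternatives, 20 of which leave out 1 library, Syt16 in KO minus C57 ran from -0.59 to -0.49 in females and from -0.54 to -0.44 in males, and 0 of the 20 neighbours passed in each. Males minus females of Syt16 passed under none. The replicate numbers did not pair the libraries: of 30 pairs of same-numbered libraries 0 had correlated deviations above 0.1, and 2 of 20 libraries correlated best with their own number. The replicate block left Syt16 at -0.52 and -0.48 and took the SNARE count in the mean of both sexes from 1 to 0. The female Vamp2 call ended under the replicate block (adjusted p = 0.0594 in limma), with the GC trend removed (0.0898) and in the separate fit (0.0836), while Snap29 passed in the first 2 of these, so that the female count there was again 1. The SNARE count in the mean was also 0 with the GC trend removed, without the Ttr libraries and without the Prl libraries, and ran from 0 to 2 when single libraries were left out. The female SNARE count of 1 became 2 with the 2 FPKM filter and with library weights, and 0 without the Ttr libraries, without the Prl libraries and in the fit of only the compared groups, with 0 to 2 when single libraries were left out. The mean count of tandem C2 genes went from 1 to 0 with the GC trend removed, without the Ttr libraries and without the Prl libraries, and ran from 0 to 1 over single libraries, and its female count became 1 (Rph3a) with the GC trend removed. The mean count of other synaptotagmins became 1 (Syt1) with the GC trend removed, or without female C57 replicate 5 or male C57 replicate 2, and ran from 0 to 1 over single libraries. The Vamp2 call in females ended without female C57 replicate 3, 4 or 5 or female KO replicate 2, 3, 4 or 5, with an adjusted p of 0.0169 to 0.0874 over single libraries, and in the mean without female KO replicate 2, 3, 4 or 5, male C57 replicate 1, 2 or 3 or male KO replicate 3 or 5 (0.0161 to 0.0648). The Sytl2 call ended without female C57 replicate 1 or 4, female KO replicate 3 or 5, male C57 replicate 1, 2, 3 or 5 or male KO replicate 3 or 4 (0.0164 to 0.0666). The mean Gphn call ended without female KO replicate 4 or 5, male C57 replicate 5 or male KO replicate 3, 4 or 5 (0.0163 to 0.0531). The Pygl call ended without any library other than female KO replicates 4 and 5 and replicate 4 of either male group (0.0291 to 0.0892). The female Gphn call and the Sipa1l1 call held without each single library, but the female Gphn call ended in the separate fit (0.0508). With the GC trend removed the mean Gphn call (0.0503), the Sytl2 call (0.0562) and the Pygl call (0.0849) ended. Pygl also ended with a pseudocount of 0.1 (0.0508), with robust shrinkage (0.0528) and under the replicate block (0.0760). Over all genes, the female count of 438 became 236 with the GC trend removed, 76 without the Ttr libraries, 8 without the Prl libraries and 91 in the separate fit (176 to 525 over single libraries). The male count of 6 became 3 with the 2 FPKM filter and 12 without the Ttr libraries (6 to 11), and the mean count of 424 became 181 and 84 without the Ttr and the Prl libraries (273 to 449). The count of 735 between the sexes became 118 with the GC trend removed and 230 and 87 without the Ttr and the Prl libraries (351 to 1075). The causes of these changes were not tested. Depth is unknown, and low genes such as Rhoj and Kcnh5 limit what can be seen near Syt16.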
